A study of Mus musculus with 12 samples.

Results

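NKR-P1 receptors and Clec2 ligands were described through 6 genes, Klrb1a, Klrb1b, Klrb1c and Klrb1f for the receptors and Clec2d and Clec2i for the ligands, out of 54232 genes in a count table of NK cells and CD8+ T cells from MC38 tumors. The set was selected on values measured in these libraries: the rule took receptors and ligands of the family by name and was drawn up because Klrb1f was lower in Tyk2-mutant than in WT CD8+ T cells but not in NK cells. The genotype contrasts of Klrb1f are therefore given as a description without a test, as are its differences between NK and CD8+ T cells. All 6 genes passed the filter on low counts, a mean of at least 10 normalised counts over the libraries, which kept 13279 genes.

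MC38 is a mouse colon adenocarcinoma line, and 1000000 cells were injected into each flank of C57BL/6N-background mice aged 6 to 12 weeks. After 8 to 10 days leukocytes (CD45+) were isolated from the tumors and 300 cells per library were sorted, either as NK cells by NK1.1 without CD3ε or as CD8+ T cells by CD3ε with CD8a, and their polyadenylated RNA was amplified with Smart-seq2. The hosts were WT, had no TYK2, a Janus kinase of cytokine receptors (labelled TYK2KO, here KO), or had a kinase-inactive TYK2 from a point mutation (labelled TYK2KE, here KE), while the injected tumor cells carried neither allele. This gave 6 groups of 2 libraries, and no other treatment was applied. The labels do not say whether the 2 libraries of a group came from separate mice, so p-values measure the spread between these libraries, which may be technical.

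NKR-P1 proteins are C-type lectin-like receptors of NK cells that recognise Clr proteins, the products of the Clec2 genes encoded in the same gene complex. NKR-P1B, encoded by Klrb1b, is inhibitory and signals through the phosphatase SHP-1 (Ptpn6) when it meets Clr-b, the product of Clec2d, on healthy cells. NKR-P1C, encoded by Klrb1c, is activating, pairs with the Fc receptor gamma chain (Fcer1g) and carries the NK1.1 epitope that defines NK cells in C57BL/6 mice. NKR-P1F, encoded by Klrb1f, binds several Clr proteins, among them Clr-g, the product of Clec2i, and NKR-P1A, encoded by Klrb1a, is an activating-type receptor.

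Libraries held 10378761 to 14732882 counts, with a median of 12720184. Values are given as CPM (counts scaled to a TMM-adjusted library total of 1000000), where 3 counts correspond to 0.218 to 0.276 CPM. The labelled cell types were matched by their markers: Ncr1 lay at 843 to 2298 CPM in NK and 1.02 to 1.99 CPM in CD8+ T cell libraries, and Cd8a at 2.70 to 4.52 and 2825 to 4086 CPM. Myeloid markers were uneven among NK libraries. A list of 10 summed to 8004 and 7206 CPM for WT, to 5144 and 219 CPM for KO and to 332 and 429 CPM for KE. Fcgr3, 1 of the 10, gave 195 CPM in KO replicate 2, where Csf1r had 0.222 CPM. In KE libraries Fcgr3 gave 271 and 197 CPM. The lower sums are therefore not read as macrophage RNA alone. Tyk2 itself lay at 46.7 to 119 CPM and did not separate the genotypes, which left the labels unchecked by the targeted gene.

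The 6 genes lie within 577 kb of chromosome 6 (GRCm38, chr6:128609227-129186534), and all are protein coding. Klrb1a (128609227 to 128623533), Klrb1c (128778485 to 128789215) and Klrb1b (128813706 to 128826331) are on the minus strand. Clec2i (128887588 to 128898167), Klrb1f (129045901 to 129057464) and Clec2d (129180615 to 129186534) follow on the plus strand. Receptor genes therefore flank the Clec2i ligand gene, and Klrb1f and Clec2d are the most distal of the 6, with Clec2e and Klrb1-ps1 between them.

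Family members resemble each other in sequence, and the counts rest on reads of 50 bases that aligned to 1 place. In GENCODE M21, 0% of the distinct 50-base windows of Klrb1f transcripts recurred exactly in transcripts of another gene, while near-identical windows and other parts of the genome were not searched. The share was 1.98% for Clec2d, 4.13% for Clec2i, 9.92% for Klrb1a, mostly with Klrb1c, 17.0% for Klrb1c and 27.2% for Klrb1b. For Klrb1b and Klrb1c most shared windows belonged to Gm44511, a gene model that runs through both and overlaps 24.1% of the exon bases of Klrb1b and 15.7% of those of Klrb1c. Gm44511 had 0 counts in all 12 libraries, and reads on the shared exons may have been dropped, so levels of Klrb1b and Klrb1c are uncertain in this respect.

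Promoter windows are shown for the inhibitory receptor Klrb1b, the receptor Klrb1f and the ligand Clec2d, because these 3 hold the interferon response element core searched for. They are from RefSeq (GRCm38.p6), read 5′ to 3′ on the strand of the gene, and cover up to 250 bases before the transcription start. Capitals mark matches to GAAANNGAA on either strand. The last 16 bases of the Klrb1b window lie inside the GENCODE gene span and are not printed, so distances to its start count 16 bases more than the run shows. Klrb1b is chr6:128826332-128826565, minus strand. Klrb1f is chr6:129045651-129045900, plus strand. Clec2d is chr6:129180365-129180614, plus strand.
Klrb1b: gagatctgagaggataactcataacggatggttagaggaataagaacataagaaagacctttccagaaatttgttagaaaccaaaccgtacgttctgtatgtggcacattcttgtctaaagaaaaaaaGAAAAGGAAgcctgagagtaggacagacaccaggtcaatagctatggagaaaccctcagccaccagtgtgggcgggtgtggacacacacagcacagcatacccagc
Klrb1f: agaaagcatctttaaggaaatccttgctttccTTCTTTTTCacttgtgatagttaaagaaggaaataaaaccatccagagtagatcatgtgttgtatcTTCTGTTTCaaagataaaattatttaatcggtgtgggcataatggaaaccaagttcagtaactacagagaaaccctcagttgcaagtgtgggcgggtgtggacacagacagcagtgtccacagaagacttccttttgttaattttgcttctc
Clec2d: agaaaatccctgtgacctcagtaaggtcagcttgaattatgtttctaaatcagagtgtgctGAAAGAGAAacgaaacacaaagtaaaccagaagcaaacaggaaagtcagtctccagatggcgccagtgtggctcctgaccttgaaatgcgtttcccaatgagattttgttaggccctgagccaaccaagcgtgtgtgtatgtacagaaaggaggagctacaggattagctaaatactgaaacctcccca

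Klrb1f held 2 matches, starting 218 and 152 bases before its start, Klrb1b held 1 at 122 bases and Clec2d held 1 at 189 bases. The same core occurred in 7.13% of 32851 promoter windows. The windows of Klrb1a, Klrb1c and Clec2i did not hold it. The STAT element TTCNNNGAA occurred in 7.02% of all windows and the T-box element AGGTGTGA in 1.12%, but in none of the 6. The RUNX element TGTGGT, found in 14.0% of windows, was present in Klrb1a and Klrb1c. These windows of Klrb1a and Klrb1c, which lie inside the GENCODE gene spans and are not shown, were 64.8% identical in a global alignment, and those of Klrb1b and Klrb1f 58.0%, against 42.3% to 52.1% for the other 13 combinations. Klrb1b and Klrb1f shared the 22-base run agtgtgggcgggtgtggacaca, which no promoter window of another gene held. A match is a description of letters and was not tested as a binding site.

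NK cells expressed all 4 receptors in every library. Per length of exon, Klrb1c was the highest in 6 of 6 libraries, with 405 to 854 CPM per kb and a median of 622. Klrb1f, with 191 to 505 and a median of 288 CPM per kb, was below Klrb1c and above Klrb1a in 6 of 6 libraries and above Klrb1b in 5 of 6, the exception being KO replicate 2 with 256 against 282 CPM per kb. Klrb1a and Klrb1b had close medians of 156 and 152 CPM per kb, but within libraries Klrb1b was the higher in 5 of 6. Of the summed level of these 4 receptors, Klrb1c made up 43.7% to 54.0%, Klrb1f 18.9% to 29.6%, Klrb1b 9.16% to 20.9% and Klrb1a 9.43% to 17.1%. The ligands were lower in the same cells, with 16.6 to 44.0 CPM per kb for Clec2i and 5.03 to 24.7 for Clec2d, and Clec2i exceeded Clec2d in 6 of 6 libraries.

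The order differed in CD8+ T cells and, for Klrb1f, with the genotype. In WT, Klrb1f had 17.5 and 12.4 CPM per kb, a level like that of the ligands. It exceeded Clec2d, at 17.4 CPM per kb, in replicate 1 and Clec2i, at 11.9 CPM per kb, in replicate 2, and was the lower of the pair otherwise. The other 3 receptors were below Klrb1f in both WT libraries, with Klrb1c at 0.873 and 0.882 CPM per kb. In the 4 mutant libraries Klrb1f had 0.301 to 1.02 CPM per kb and was below both ligands in 4 of 4 and below Klrb1c in 3 of 4. Over all 6 libraries Clec2i and Clec2d had medians of 9.62 and 9.41 CPM per kb, and each was the higher in 3. Clec2d exceeded Klrb1c, with a median of 0.906 CPM per kb, in 6 of 6 libraries and Clec2i did in 5 of 6. Klrb1a, with a median of 0.544, and Klrb1b, with 0.279 CPM per kb, were below both ligands in every library, and Klrb1a was the higher of them in 4 of 6.

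**Figure D1:**
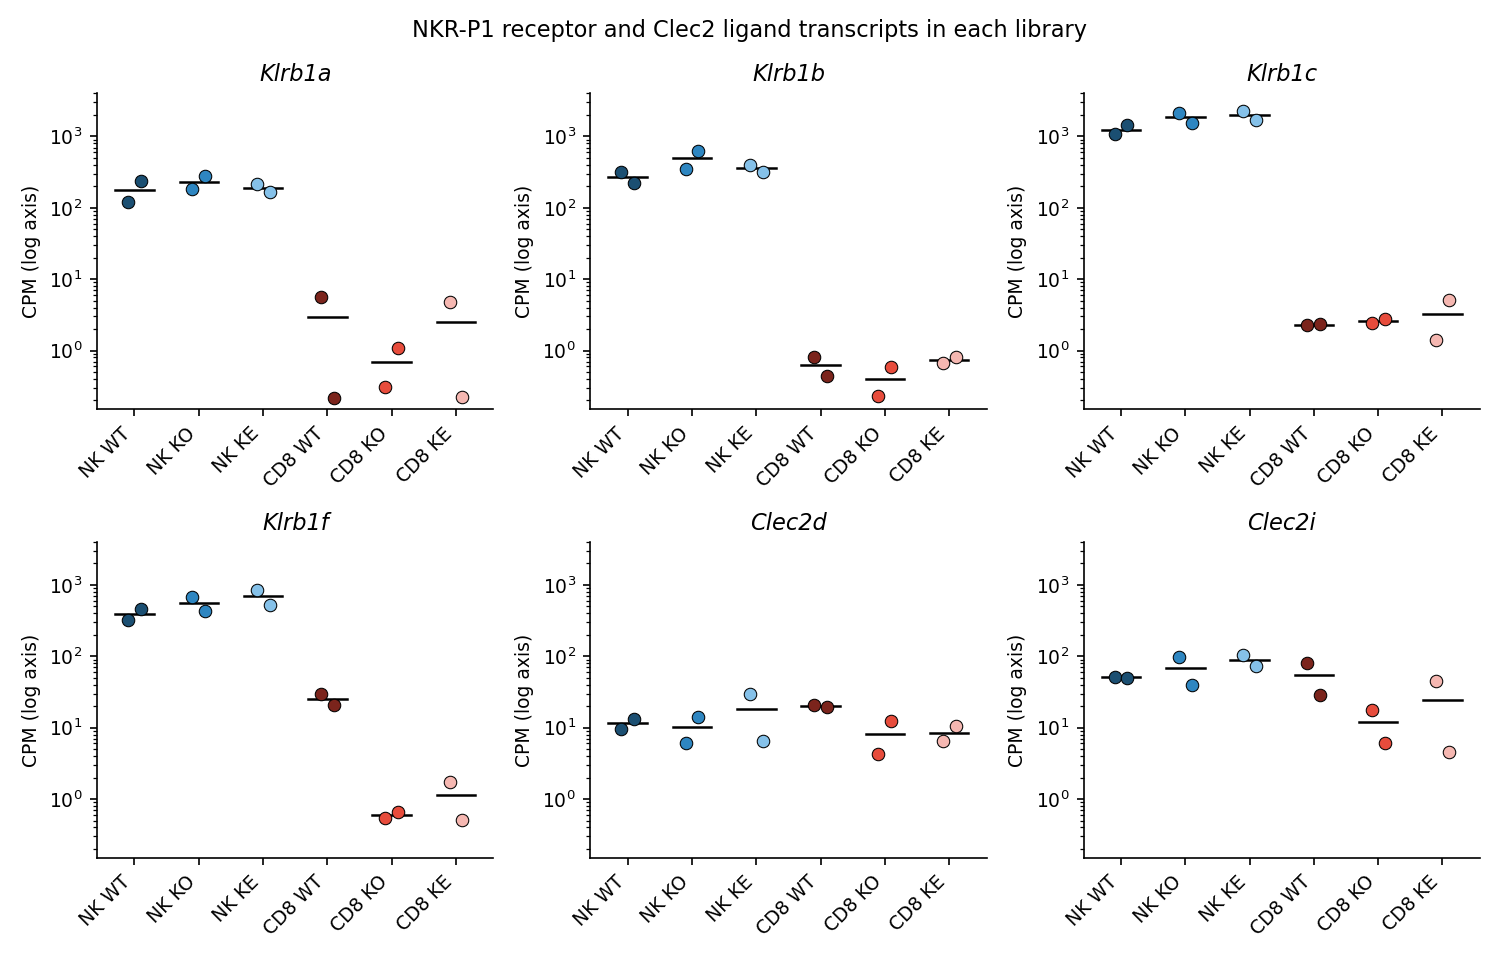
CPM of each of the 6 genes on a log axis in the 12 libraries, with 1 point per library and a bar at the mean of the 2 libraries of a group. The 4 receptors lay between 121 and 2247 CPM in NK libraries and at or below 5.63 CPM in CD8+ T cell libraries, except Klrb1f at 29.7 and 21.1 CPM in CD8 WT, whereas the ranges of the ligands over all libraries overlapped between the cell types.

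**Figure D2:**
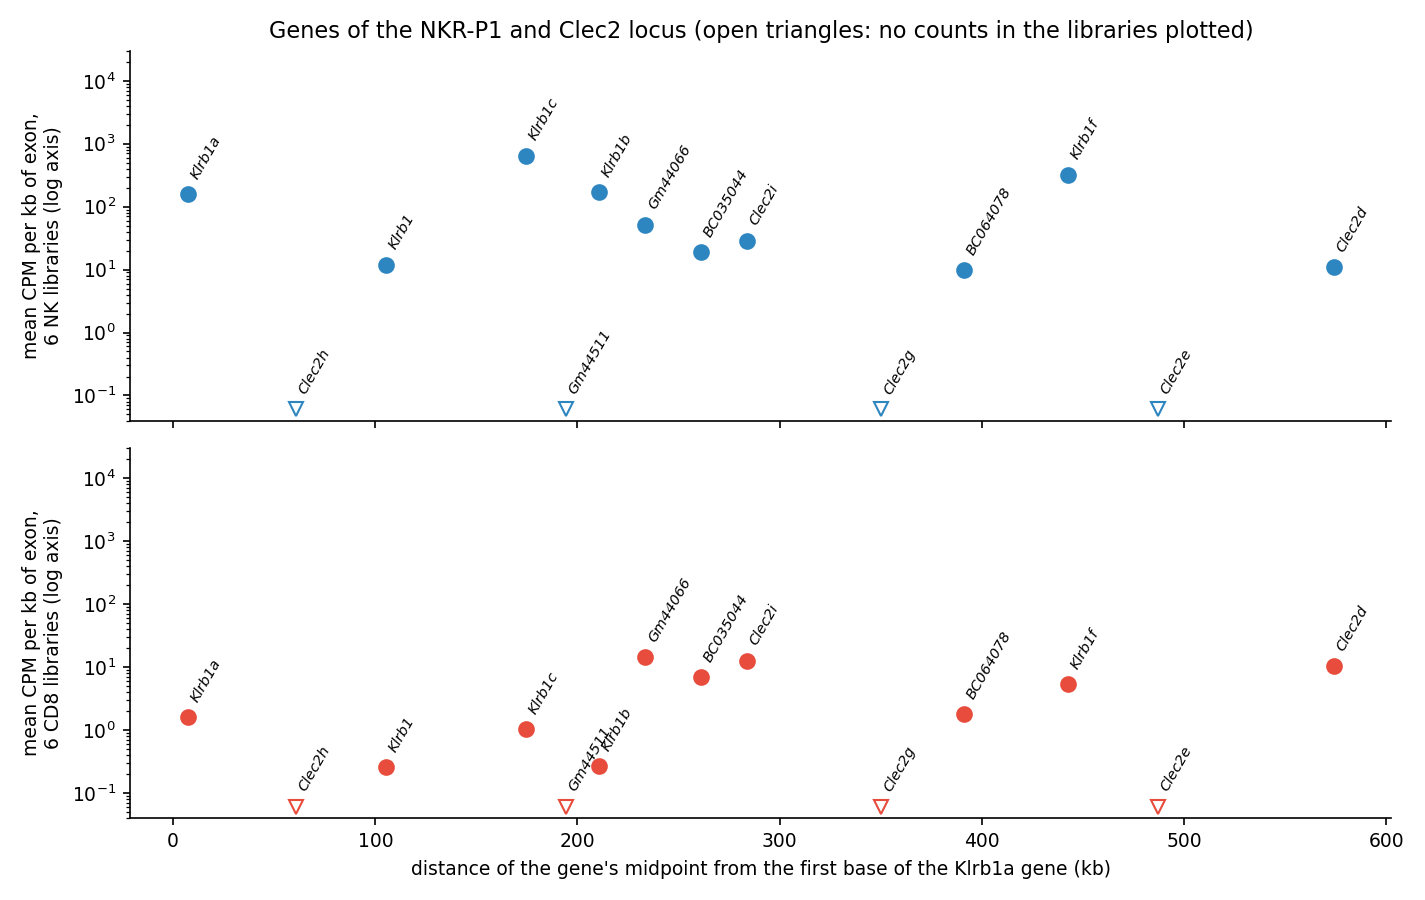
Mean CPM per kb of exon, on a log axis, of the protein-coding and tested genes of the locus, against the distance of each gene's midpoint from the first base of the Klrb1a gene, in NK libraries above and CD8+ T cell libraries below. Open triangles at the foot mark genes without counts, which were Clec2h, Gm44511, Clec2g and Clec2e in both cell types.

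The comparison of NK with CD8+ T cells asked how far each receptor and ligand belongs to either cell type, and it was made within each genotype on libraries that the other genotypes do not share. Klrb1b, the inhibitory receptor, was higher in NK cells in all 3 genotypes. NK cells of WT mice had 322 and 225 CPM, those of KO mice 354 and 629 CPM and those of KE mice 396 and 318 CPM. CD8+ T cells of WT mice had 0.815 and 0.435 CPM, those of KO mice 0.230 and 0.581 CPM and those of KE mice 0.661 and 0.806 CPM, from 3 to 11 counts a library. No CD8+ T cell library came near an NK library. The log2 fold change was 8.75 ± 0.58 (SE) in WT with an FDR of 3.07e-05, 10.22 ± 0.62 in KO with 2.08e-05 and 8.90 ± 0.59 in KE with 3.33e-05.

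Klrb1b was the 1 gene called, which required an FDR below 0.05 and a change of 1 or more on the log2 scale in either direction, of the 4 that could be counted, Klrb1a, Klrb1b, Clec2d and Clec2i, in each genotype. Over all 13279 genes, 0.776% were called in WT, 0.904% in KO and 0.7% in KE. Klrb1b passed the filter through the NK libraries in which it was high, so the count is read together with its values above, and edgeR without that filter called it as well. DESeq2 called 2 of the 4 in each genotype, Klrb1b and Klrb1a, beside 823, 810 and 799 of all genes tested. Leaving out NK KO replicate 1, which carried myeloid transcripts, left the count at 1 in each genotype. Leaving out any one of the 4 WT or KE CD8+ T cell libraries, which enter the shared spread, made it 2 in KO.

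Klrb1a was also far higher in NK cells but varied among CD8+ T cell libraries. It had 121 and 240 CPM in NK WT, 182 and 283 CPM in NK KO and 215 and 169 CPM in NK KE. CD8+ T cells had 5.63 and 0.218 CPM in WT, then 0.306 and 1.08 CPM for KO libraries, then 4.79 and 0.220 CPM for KE libraries. The higher value was replicate 1 in WT and KE and replicate 2 in KO, and no NK library overlapped a CD8+ T cell library. Log2 fold changes were 5.94 ± 1.48 (FDR 0.130) in WT, 8.38 ± 1.67 (FDR 0.0522) in KO and 6.26 ± 1.51 (FDR 0.119) in KE, none of them past the threshold. Replicate 1 of the CD8+ T cells lowered the values in WT and KE, which were 9.63 and 9.71 without it. DESeq2 gave FDRs of 1.45e-05, 2.73e-10 and 4.47e-06.

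Klrb1c served as the sort marker of the NK cells through NK1.1, so its difference is fixed by the gate. It had 1066 and 1435 CPM in NK WT, 2152 and 1556 CPM in NK KO and 2247 and 1719 CPM in NK KE, against 1.41 to 5.05 CPM in CD8+ T cells. Klrb1f had 325 and 456 CPM in NK WT, 672 and 436 CPM in NK KO and 859 and 522 CPM in NK KE. Its mean in NK cells was 15.4 times that in CD8+ T cells in WT, 923 times in KO and 614 times in KE.

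Neither ligand passed the test between the cell types, although Clec2i in KO was at an unadjusted p under 0.05. Clec2d had 9.63 and 13.4 CPM in NK WT and 21.1 and 19.4 CPM in CD8 WT, so both CD8+ T cell libraries were higher, with a log2 fold change of NK over CD8 of -0.81 ± 1.38 (FDR 0.941). In KO it had 6.10 and 14.3 CPM in NK and 4.29 and 12.3 CPM in CD8+ T cells (log2 fold change 0.30 ± 1.38, FDR 1). In KE it had 29.9 and 6.52 CPM in NK and 6.53 and 10.6 CPM in CD8+ T cells (log2 fold change 1.09 ± 1.39, FDR 0.907). Its libraries overlapped in KO and KE, and the spread between replicates left differences of several fold undetectable.

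Clec2i had 51.1 and 50.2 CPM in NK WT and 79.5 and 28.7 CPM in CD8 WT, a log2 fold change of -0.09 ± 0.98 (FDR 1). In the mutants NK cells lay above CD8+ T cells without overlap. KO had 96.4 and 40.1 CPM in NK and 17.6 and 6.06 CPM in CD8+ T cells (log2 fold change 2.53 ± 1.04, FDR 0.464). KE had 106 and 73.8 CPM in NK and 44.4 and 4.54 CPM in CD8+ T cells (log2 fold change 1.88 ± 1.01, FDR 0.582). Without CD8 KE replicate 1 the KE value was 4.30 and without CD8 KE replicate 2 it was 1.02.

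**Figure D3:**
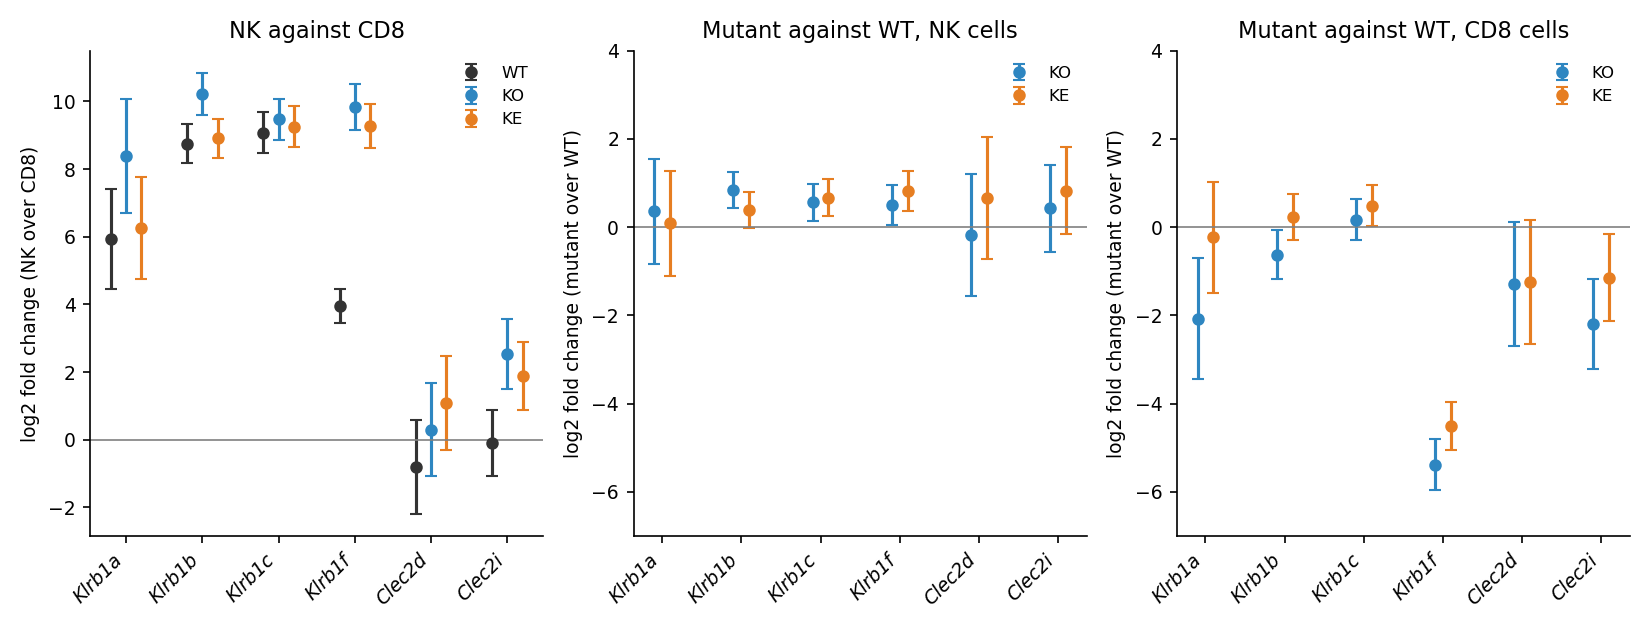
Log2 fold changes (edgeR) of the 6 genes for NK over CD8+ T cells in each genotype, left, and for KO and KE over WT in NK cells, middle, and CD8+ T cells, right, with bars of 1 SE. Klrb1b lay between 8.75 and 10.22 on the left, all 6 genes lay between -0.18 and 0.85 in the middle, and Klrb1f at -5.39 and -4.50 stood below the others on the right, where its values chose the set.

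Of the 6 genes, the receptor Klrb1f differed most between genotypes in CD8+ T cells. WT libraries had 29.7 and 21.1 CPM, from 401 and 291 counts. KO libraries had 0.536 and 0.664 CPM, from 7 and 8 counts, and KE libraries 1.74 and 0.513 CPM, from 21 and 7 counts. Both WT libraries were thus above all 4 mutant libraries, and the 2 replicates of WT were close to each other. Mean CPM was 42.4 times lower in KO and 22.6 times lower in KE, with log2 fold changes of -5.39 ± 0.58 and -4.50 ± 0.54 that share the WT libraries. In these bulk samples, fewer cells with Klrb1f and less Klrb1f RNA per cell cannot be told apart.

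The NK cell values of Klrb1f gave no such difference. The means were 391 ± 92.8 CPM (SD, n = 2) for WT, 554 ± 167 CPM for KO and 691 ± 239 CPM in KE. KO libraries overlapped WT, and both KE libraries lay above it. The summed myeloid markers were 8004 and 7206 CPM in these WT libraries and 332 and 429 CPM in the KE libraries, and their part in the Klrb1f values was not tested. Log2 fold changes over WT were 0.50 ± 0.45 in KO and 0.82 ± 0.45 in KE. The mutant effect in NK minus that in CD8+ T cells came to 5.89 ± 0.72 for KO and 5.32 ± 0.69 for KE on the log2 scale, again as a description of what chose the set.

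Klrb1f was set against Klrb1c, the marker of the NK cell gate, within each library. In the 6 NK libraries, Klrb1f counts were 28.0% to 38.2% of Klrb1c counts. CD8 WT libraries held 31 and 32 Klrb1c counts, to which 8.68 to 11.9 and 8.96 to 12.2 Klrb1f counts would belong at those ratios. They held 401 and 291. Among the mutants, KO libraries held 7 and 8 Klrb1f counts where the ratios give 8.96 to 12.2 and 9.24 to 12.6, and KE libraries held 21 where they give 4.76 to 6.50 and 7 where they give 19.3 to 26.4. Klrb1f was therefore above the NK ratio in both WT libraries and in KE replicate 1, and below it in the other 3.

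The other receptors were set against Klrb1c in the same way. Klrb1b, at 15.7% to 40.4% of Klrb1c counts in NK cells, was within the range given by those ratios in 4 of 6 CD8+ T cell libraries, with 3 counts where 5.02 to 12.9 belonged in KO replicate 1 and 8 where 2.67 to 6.87 belonged in KE replicate 1. Klrb1a exceeded its range in 3 libraries, with 76 counts in WT replicate 1 where 2.62 to 5.63 belonged, 13 in KO replicate 2 where 2.79 to 6.00 belonged and 58 in KE replicate 1 where 1.44 to 3.09 belonged. It was below its range in KE replicate 2, with 3 counts where 5.8 to 12.5 belonged. That library held 69 Klrb1c counts, the most among the CD8+ T cell libraries. Ncr1 had 14 to 26 counts in all 6 CD8+ T cell libraries and did not follow Klrb1f, and it was below its range in KO replicate 2, with 21 counts where 21.5 to 44.1 belonged, and in KE replicate 2, with 14 where 44.9 to 92.3 belonged. Tyrobp, an adaptor of activating receptors, had 99 to 212 counts and exceeded its range in all 6 libraries, mutants included, as with 154 counts where 22.1 to 56.4 belonged in WT replicate 1. Counts above the NK ratio to Klrb1c were therefore not particular to Klrb1f or to WT.

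**Figure D4:**
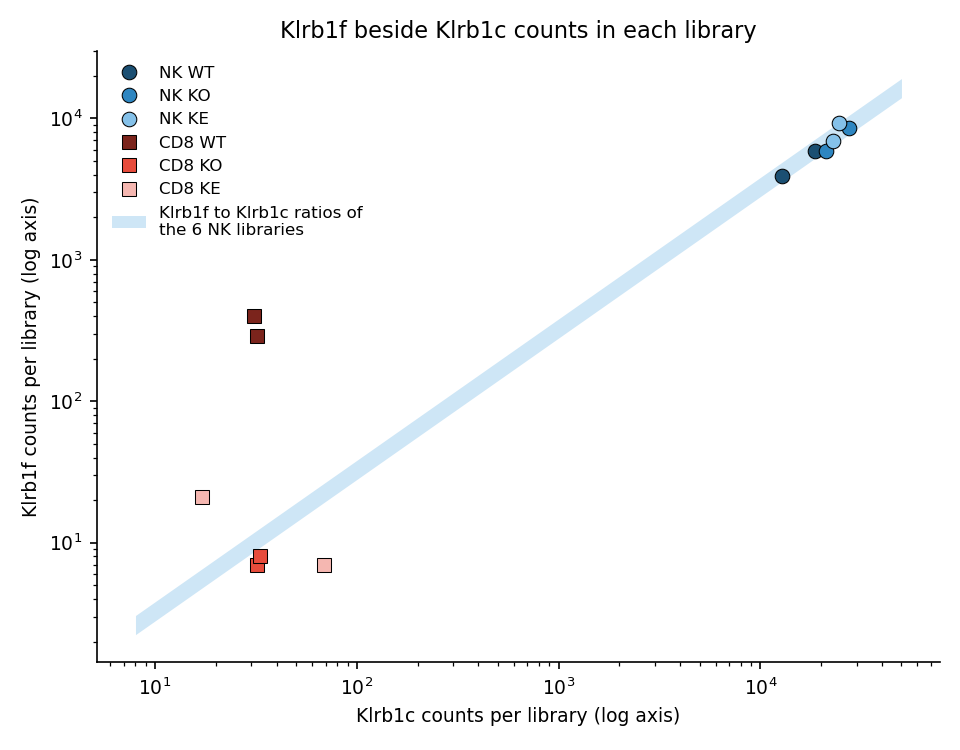
Counts of Klrb1f against counts of Klrb1c in each library, on log axes, with NK libraries as circles and CD8+ T cell libraries as squares. The band spans the Klrb1f to Klrb1c ratios of the 6 NK libraries, 28.0% to 38.2%, and the CD8 WT squares with 401 and 291 Klrb1f counts lie far above it.

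Transcripts of other lymphocytes were compared beside Klrb1f. Trdc, which encodes the constant part of the delta chain of T cell receptors, had 10.6 and 12.8 CPM in CD8 WT and 0.230 and 0.0830 CPM in KO and 0.248 and 0.220 CPM in KE, so both WT libraries were above all 4 mutant libraries, as for Klrb1f. It was lower in CD8+ T cells by a log2 fold change of -6.13 ± 0.60 in KO (FDR 0.0121) and -5.59 ± 0.57 in KE (FDR 0.00938). However, edgeR called 0 genes in either comparison when fitted to the CD8+ T cell libraries only. NK libraries had 112 to 314 CPM of Trdc. Of 11 markers of gamma-delta or innate-like T cells, 7 passed the filter and Trdc alone was called in each mutant. Over all genes edgeR called 0.0527% in KO and 0.0828% in KE. This list was chosen with earlier results of these data known. The whole list summed to 279 and 85.6 CPM for CD8 WT, to 98.8 and 147 CPM for KO and to 694 and 211 CPM for KE, which overlapped, and Sox13, Il17a and Blk were at or near 0. The part of gamma-delta T cells in the Klrb1f values was not tested.

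Summed interferon-stimulated genes were also highest in the CD8 WT libraries, although few of them passed the test by edgeR. The 10 genes of a list of well-known members summed to 2040 and 2312 CPM for CD8 WT, to 471 and 317 CPM for KO and to 584 and 226 CPM for KE. Their median log2 fold change in CD8+ T cells was -3.44 in KO and -3.17 in KE, against 0 over all genes tested, with 0 and 1 of 10 called by edgeR, 7 and 5 at an unadjusted p under 0.05 and 5 and 5 called by DESeq2. Over all 13279 genes edgeR called 0.0527% and 0.0828%, 640 and 738 were at an unadjusted p under 0.05 and DESeq2 called 234 and 329. The sum of the same list was lower in mutant NK cells as well, at 466 to 554 CPM against 2167 and 1721 CPM in WT, where Klrb1f was not lower. Their part in the Klrb1f values was not tested.

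**Figure D5:**
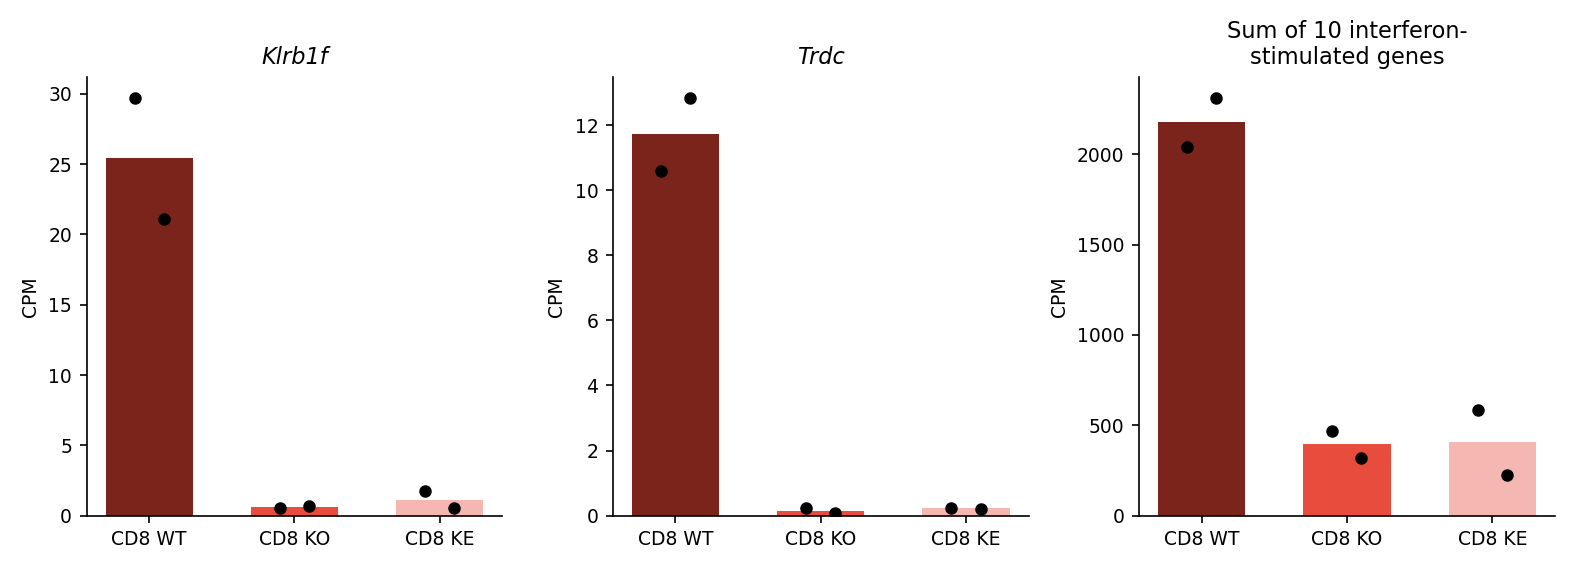
CPM in CD8+ T cell libraries of Klrb1f, Trdc and the sum of 10 interferon-stimulated genes, with bars from 0 to the mean and a point for each of the 2 libraries of a group. WT libraries lay at 29.7 and 21.1 CPM of Klrb1f and 10.6 and 12.8 CPM of Trdc, above every mutant library, and at 2040 and 2312 CPM of the sum, against 226 to 584 CPM in the mutants.

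None of the other 5 genes passed the test between mutant and WT in either cell type. In NK cells edgeR called 0 of 5 in KO and 0 of 5 in KE. Of the 5, 0 were at an unadjusted p under 0.05 and 0 were called by DESeq2. Over all genes edgeR called 0% in either comparison, 837 and 798 were at an unadjusted p under 0.05 and DESeq2 called 374 and 391. In CD8+ T cells edgeR also called 0 of 5 in KO and in KE. Again 0 were at an unadjusted p under 0.05 and 0 were called by DESeq2. Over all genes edgeR called 0.0527% in KO and 0.0828% in KE, 640 and 738 were at that p and DESeq2 called 234 and 329. Klrb1b, at 3 to 11 counts in each CD8+ T cell library, passed the filter through the NK libraries, so these counts of 0 say nothing of it there. The comparisons of KO and KE share the WT libraries.

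Klrb1b had the lowest FDR of these in NK cells. Both KO libraries, at 354 and 629 CPM, were above both WT libraries, at 322 and 225 CPM, with a log2 fold change of 0.85 ± 0.41 (FDR 0.766). KE libraries, at 396 and 318 CPM, overlapped WT, with 0.38 ± 0.41 (FDR 1). Klrb1c was above both WT libraries in all 4 mutant libraries, with 0.57 ± 0.42 (FDR 0.844) in KO and 0.67 ± 0.42 (FDR 0.834) in KE. Klrb1a gave 0.37 ± 1.19 and 0.09 ± 1.19, both with an FDR of 1, and its libraries overlapped. Ncr1, which encodes the activating receptor NKp46, was likewise lower in WT, with 843 and 934 CPM against 1230 to 2298 CPM in the mutants, and WT libraries were those with the most myeloid transcripts. The part of the myeloid transcripts in these values was not tested.

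The other receptors were low in CD8+ T cells of every genotype, so that changes between genotypes could hardly be assessed. Klrb1c, with 17 to 69 counts a library, gave 0.17 ± 0.46 in KO and 0.49 ± 0.46 in KE. Klrb1a gave -2.07 ± 1.37 in KO and -0.23 ± 1.25 in KE, which turned on WT replicate 1, with 76 counts against 3 in WT replicate 2. Without that library the log2 fold changes of Klrb1a were 1.62 and 3.46. The differences of Klrb1a and Klrb1c had FDRs of 0.896 to 1 and were not detectable at this depth.

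Clec2d, the ligand of the inhibitory receptor, stood on an extensive list of interferon-stimulated genes that the study had compiled from several resources. The part of interferon in the Clec2d values was not tested. In CD8+ T cells both WT libraries, at 21.1 and 19.4 CPM, were above all 4 mutant libraries, at 4.29 to 12.3 CPM. How many of all genes separate in this way was not counted. The log2 fold changes were -1.29 ± 1.40 in KO and -1.24 ± 1.40 in KE, each with an FDR of 1. Leaving out 1 library gave -2.27 to -0.72 in KO and -1.63 to -0.94 in KE. In NK cells WT libraries lay within the range of each mutant, and the values were -0.18 ± 1.38 in KO and 0.66 ± 1.38 in KE, each with an FDR of 1.

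Clec2i, the ligand of NKR-P1F, was lower in both KO than in both WT CD8+ T cell libraries, at 17.6 and 6.06 against 79.5 and 28.7 CPM. The log2 fold change was -2.19 ± 1.02 (FDR 0.887). KE, at 44.4 and 4.54 CPM, overlapped WT, with -1.14 ± 0.99 (FDR 0.935). Leaving out 1 library moved the KO value from -3.16, without CD8 KO replicate 1, to -1.28, without CD8 WT replicate 1, and the KE value from -3.57, without CD8 KE replicate 1, to -0.23, without CD8 WT replicate 1. In each genotype replicate 1 of the CD8+ T cells had more Clec2i than replicate 2. In NK cells Clec2i gave 0.43 ± 0.98 in KO and 0.83 ± 0.99 in KE, each with an FDR of 1.

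KO and KE were compared directly, which asks whether loss of the protein and loss of its kinase activity differ. edgeR called 0 of the 5 genes other than Klrb1f in NK cells and 0 of 5 in CD8+ T cells. Of the 5, 0 were at an unadjusted p under 0.05 and 0 were called by DESeq2. Over all genes edgeR called 0% in each cell type. For NK and CD8+ T cells, 504 and 481 genes were at an unadjusted p under 0.05 and DESeq2 called 203 and 157. The count of the 5 in CD8+ T cells again says nothing of Klrb1b. For Klrb1f the log2 fold change of KO over KE was -0.32 ± 0.44 in NK cells and -0.88 ± 0.57 in CD8+ T cells, as a description, since the mutant libraries entered the choice of the set. KE replicate 1 of the CD8+ T cells had 21 Klrb1f counts and the other 3 mutant libraries 7 or 8.

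The mutant effect was also compared between NK and CD8+ T cells for the other 5 genes. edgeR called 0 of 5 for KO and 0 of 5 for KE. Of the 5, 0 were at an unadjusted p under 0.05 and 0 were called by DESeq2. Over all genes edgeR called 0.00753% for KO and 0% for KE. In the same order, 703 and 822 genes were at an unadjusted p under 0.05 and DESeq2 called 192 and 278. The effects differed by 2.62 ± 1.41 (FDR 0.909) for Clec2i and 1.47 ± 0.69 (FDR 0.896) for Klrb1b in KO, and by 1.97 ± 1.40 (FDR 0.904) and 0.15 ± 0.68 (FDR 1.00) in KE, on the log2 scale with higher values in NK cells. Leaving out 1 library gave 1.70 to 3.59 for Clec2i in KO and 1.05 to 4.40 in KE, and 0.95 to 2.28 for Klrb1b in KO. The values of Klrb1b rest on its 3 to 11 counts in each CD8+ T cell library, too few to assess a difference in effect.

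Apart from Klrb1, the remaining family genes were at or near 0 counts. Of 8 further Klrb1 and Clec2 genes in the table, pseudogenes included, only Klrb1 passed the filter. Klrb1 had 0 and 36 counts in NK WT, 223 and 134 in NK KO and 109 and 155 in NK KE, against 0 to 13 counts in CD8+ T cells. Both NK WT libraries were below all 4 mutant NK libraries, but the log2 fold changes of 3.29 (FDR 0.925) in KO and 2.95 (FDR 0.993) in KE did not pass the test. Clec2e, Clec2f, Clec2g, Clec2h, Clec2j and Clec2l had 0 counts in all 12 libraries, and Klrb1-ps1 had 1 count in each of 2 NK libraries. Of these ligand genes nothing was detectable in either cell type, where 3 counts are 0.218 to 0.276 CPM.

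The region between Klrb1a and Clec2d holds 36 annotated genes, of which 20 had 0 counts in all libraries and 10 were tested. Besides the 6 and Klrb1, the tested genes were Gm44066, BC035044 and BC064078, and edgeR called 0 of these 4 in each of 11 comparisons, with 0 to 1 at an unadjusted p under 0.05 and 0 to 1 called by DESeq2. With 0% to 0.904% of all genes called by edgeR, the count says nothing particular of these 4. BC064078, a transcribed pseudogene that lies next to Clec2f and upstream of Klrb1f, was the neighbour with the largest genotype values, chosen after its values were seen. It had 0 counts in both CD8 WT libraries and in KO replicate 1, and 9.21, 11.1 and 6.59 CPM in KO replicate 2 and the KE libraries, whereas Klrb1f was highest in WT. BC035044 overlaps Clec2i on the other strand without sharing its exons.

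Of 16 genes that carry signals of these receptors, all were tested. In NK over CD8+ T cells 2 were higher and 1 lower in WT, 4 higher and 1 lower in KO and 2 higher and 0 lower in KE, and the median log2 fold change of the 16 was 0.41, 0.10 and -0.08, against 0.01, 0 and 0 over all genes tested. Over all genes, 0.776%, 0.904% and 0.7% were called in either direction. Tyrobp was higher in NK cells in every genotype, with 1604 to 2463 CPM against 8.19 to 15.5 CPM. Fcer1g, the partner of NKR-P1C, had 2285 to 3058 CPM in NK and 4.90 to 123 CPM in CD8+ T cells and was called in WT and KO. Plcg2, a phospholipase downstream of Syk, was called in KO and KE, and the adaptor Lat was lower in NK cells in WT and KO. None of the 16 was called between genotypes, with 0 to 2 at an unadjusted p under 0.05 in each of the 4 comparisons with WT and 0 called by DESeq2. Over all genes, edgeR called 0% in mutant NK cells, and 0.0527% in KO and 0.0828% in KE CD8+ T cells. Of 13279 genes, 640 to 837 were at an unadjusted p under 0.05 and DESeq2 called 234 to 391. The counts between genotypes therefore say little of these 16.

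The genes with patterns most like each member were ranked by Pearson's r of log2 CPM over the 12 libraries, in which the split into NK and CD8+ T cells is shared by all points. For Klrb1b they were Tyrobp, Ugt1a7c, Rbpms, Klrb1c and Klra8 (r 0.992 to 0.994), and for Klrb1c they were Tyrobp, Ncr1, Klrb1b, Klri1 and Trdv4 (r 0.991 to 0.997). Among those most like Klrb1a were Syk, Plcg2, Trdj1 and Sh2d1b1 (r 0.968 to 0.979). Klrb1f was most like Trdc (r 0.990), followed by Klra13-ps, Napsa, March8 and Klra4 (r 0.958 to 0.971). Over the 6 CD8+ T cell libraries it was most like Nr2c1, Tlr13, 1700025G04Rik, H2-Q6 and Zfp580 (r 0.986 to 0.993). These CD8+ T cell values of Klrb1f chose the set, so genes high in WT and low in the mutants rank high in this list by construction. The ligands had looser neighbours, with r of 0.841 to 0.862 for Usp25, Msrb1, Gm37008 and Commd8 beside Clec2d, and 0.880 to 0.911 for Uhrf1bp1l, Gsdme, Gm44199, Mir3064 and Tmem176b beside Clec2i.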

How the data were processed

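The deposited values were raw read counts per gene, 1 column per library. According to their methods, the authors used Trimmomatic to trim 50-base single-end reads and STAR to align them to GRCm38 (mm10), and counted uniquely aligned reads over GENCODE exons with summarizeOverlaps. The kit was called stranded, but the strand setting of counting is not given in the sources used here. No molecular identifiers were stated, so count floors cover counting error only, and amplification from 300 cells adds spread.

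Group and replicate were taken from the titles. The test was edgeR's (version 4.0.16, R 4.3.3; TMM, robust quasi-likelihood F-test, two-sided), with 1 model with a mean per group over all 12 libraries. Genes with a mean normalised count of at least 10 were kept (13279), and p-values were adjusted by Benjamini-Hochberg within each of 11 comparisons (FDR). Genes were called at an FDR below 0.05 with a change of 1 or more, up or down, on the log2 scale. SE was the log2 fold change over the square root of F, and a prior count of 2 entered log2 CPM. DESeq2 1.42.0, DESeq2 size factors, no filter, a replicate block, only the libraries compared and leaving out each library were alternatives. Between genotypes, only the libraries compared meant all libraries of that cell type.

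Symbols and positions came from GENCODE M21, and 153 of 54232 identifiers had none. Promoter windows were RefSeq's, aligned with Biopython. All 6 members were named throughout. From other lists, called genes were named first, then the highest expressed, at most 4 a list, and for likeness the 5 genes of highest r, of which some are not reported here. The members and lists were chosen with earlier results of these data known. Same-numbered replicates did not deviate together.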

Additional observations from a re-analysis of the deposited data

Results flagged for a closer look

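The KE libraries of Klrb1f lay on opposite sides of WT in the 2 cell types: both NK libraries, at 859 and 522 CPM, were above both WT libraries, at 325 and 456 CPM, and both CD8+ T cell libraries, at 1.74 and 0.513 CPM, were below WT, at 29.7 and 21.1 CPM. The NK difference was 0.82 ± 0.45 on the log2 scale. Summed myeloid markers were 8004 and 7206 CPM in NK WT and 332 and 429 CPM in NK KE, and their part in it was not tested. The log2 effect of KE in NK minus that in CD8+ T cells was 5.32. This difference was not tested, because the CD8+ T cell values of Klrb1f chose the set.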

How the results depend on the processing

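In NK over CD8+ T cells, 1 of 4 genes was called in each genotype, and DESeq2 and edgeR without the filter called 2 in WT, 2 in KO and 2 in KE, Klrb1a being the added gene. Fitting only the libraries compared called 2 in KO, and leaving out a library gave 1 to 2 in KO, with 2 when any one of the 4 WT or KE CD8+ T cell libraries was left out. Every other alternative kept the counts of called members, 0 in every comparison of genotypes included. Counts over all genes moved more: DESeq2 called 799 to 823 genes between the cell types and 157 to 391 in the other comparisons, and edgeR without the filter 498 to 537 and 82 to 256, against 93 to 120 and 0 to 11. Leaving out a library moved the counts between the cell types from 103 to 49 to 128 in WT, from 120 to 65 to 125 in KO and from 93 to 33 to 112 in KE, lowest without CD8 WT replicate 1, CD8 KO replicate 1 and NK KE replicate 1. With a block for the replicate number the counts of members were unchanged (1 in each cell type comparison, 0 elsewhere), but Clec2i in NK over CD8+ T cells in WT turned to 0.22 and Klrb1a in NK cells of KE over WT to -0.04. The numbers did not pair the samples (correlations of replicate differences between groups -0.03 to 0.04).

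Leaving out each library turned the sign of 15 uncalled log2 fold changes, and their ranges show how little the 2 libraries of a group fix them. In NK over CD8+ T cells, Clec2i in WT ranged from -0.65 to 0.82, Clec2d in KO from -0.46 to 1.25 and Clec2d in KE from -0.39 to 1.83. In NK cells of KO over WT, Klrb1a ranged from -0.05 to 0.93, Clec2d from -0.93 to 0.31 and Clec2i from -0.34 to 0.91. In NK cells of KE over WT, Klrb1a ranged from -0.32 to 0.66 and Clec2d from -0.82 to 1.39. In CD8+ T cells, Klrb1a ranged from -3.25 to 1.62 in KO and from -3.68 to 3.46 in KE, and in KE Klrb1b ranged from -0.15 to 0.74 and Klrb1c from -0.71 to 1.13. For KO over KE, Klrb1f ranged from -0.66 to 0.09 in NK and from -1.52 to 0.22 in CD8+ T cells. The KE effect on Klrb1b in NK minus CD8+ T cells ranged from -0.36 to 0.53. Among values that kept their sign, Klrb1a in NK over CD8+ T cells reached 9.63 in WT and ranged from 5.32 to 9.71 in KE, and Clec2i ranged from 1.02 to 4.30 in KE. Klrb1f in CD8+ T cells of KE over WT stayed negative, at -5.61 to -3.86. The cause of these changes was not tested.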
